A study of Mus musculus with 24 samples.

Results

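The genes described here encode the aminoacyl-tRNA synthetases of mouse hematopoietic stem cells. They were taken from a fixed list of 36 symbols, 20 for enzymes of the cytosol and 16 for enzymes of the mitochondrion, and all 36 were found among the 55487 gene IDs of the count tables. The mitochondrial members carry a 2 at the end of the symbol. The list follows enzyme family and no measured value entered it, but it was chosen with earlier results of these data known. Hematopoietic stem cells, the bone marrow cells that renew themselves and give rise to every blood lineage, were sorted and sequenced in bulk by Smart-seq2, a method that copies polyadenylated RNA into full-length cDNA and amplifies it. The 24 libraries form 3 experiments around PUS10, a pseudouridine synthase, which turns uridine in RNA into its isomer. In the first, cells that overexpress PUS10 (PUS10-OE, n = 3) stand against cells carrying the vector (Vector, n = 3). In the second, the microRNA miR-139 was knocked down (miR139-KD, n = 6) and the control is non-target (NTC, n = 6). In the last, libraries labelled Pus10-KO (n = 3) stand against Pus10-WT (n = 3). The labels give no strain, age, vector or targeting method, and do not tell whether replicate libraries are from different animals. Every p-value below therefore measures the spread between libraries, part of which may be technical.

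Each synthetase joins 1 kind of amino acid to the tRNAs that carry it, and this charged tRNA is what the ribosome reads. Mammalian cells keep separate sets for cytosolic and mitochondrial translation, both encoded in the nucleus, with Kars and Gars serving both compartments. Several cytosolic enzymes sit together on a scaffold in the multisynthetase complex. When charged tRNA runs short, uncharged tRNA activates the kinase GCN2, and the transcription factor ATF4 then raises many cytosolic synthetase genes along with genes for amino acid uptake and synthesis. Blood stem cells are known for a low rate of protein synthesis.

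Total counts per library (M, mega) ran from 34.2 M to 47.3 M in Vector and PUS10-OE, from 9.87 M to 14.7 M in NTC and miR139-KD, and from 11.9 M to 18.2 M in Pus10-WT and Pus10-KO. Levels below are CPM after TMM scaling (counts divided by the effective library size), as mean ± SD. All 10 stem cell markers on a list were detected in every group, meaning a count in any library of it. Their level differed between experiments. The median of their sum was 879 CPM in Vector, 868 in PUS10-OE, 549 in NTC, 746 in miR139-KD, 2668 in Pus10-WT and 2651 in Pus10-KO. Pus10 itself stood at 257 ± 23.7 CPM in PUS10-OE against 75.9 ± 20.2 in Vector (n = 3 each). It stood at 32.9 ± 7.72 in miR139-KD against 35.9 ± 6.09 in NTC (n = 6 each). Pus10-KO libraries held no less of it, at 35.2 ± 1.31 against 28.4 ± 7.68 in Pus10-WT (n = 3 each), so the label is used here as given, and counts per gene cannot tell a deleted exon from a kept one.

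The clearest pattern was in the libraries labelled Pus10-KO, where all 20 cytosolic synthetase genes stood lower than in Pus10-WT while 11 of 16 mitochondrial ones stood higher. No single member passed edgeR's test over all genes. The cytosolic log2 fold changes ran from -0.84 to -0.20 with a median of -0.39, against a median of -0.00 over all 14657 genes tested, and the mitochondrial median was 0.21 (0.13 without Pus10-KO replicate 3). Below 0 lay 50.3% of all genes tested. Summed over the 20 cytosolic genes, the level was 2991, 3054 and 3253 CPM in the Pus10-WT libraries and 2303, 2325 and 2373 CPM in the Pus10-KO libraries, so the groups were far apart and did not overlap. Summed over 15 mitochondrial genes, leaving out Lars2, the level was 543 ± 34.7 CPM in Pus10-WT and 552 ± 41.5 CPM in Pus10-KO, with overlapping libraries. The ratio of the cytosolic to this mitochondrial sum was 5.71 ± 0.14 in Pus10-WT and 4.24 ± 0.26 in Pus10-KO (SD, n = 3 each). In bulk RNA, fewer cells of a type and less RNA per cell cannot be told apart.

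**Figure D1:**
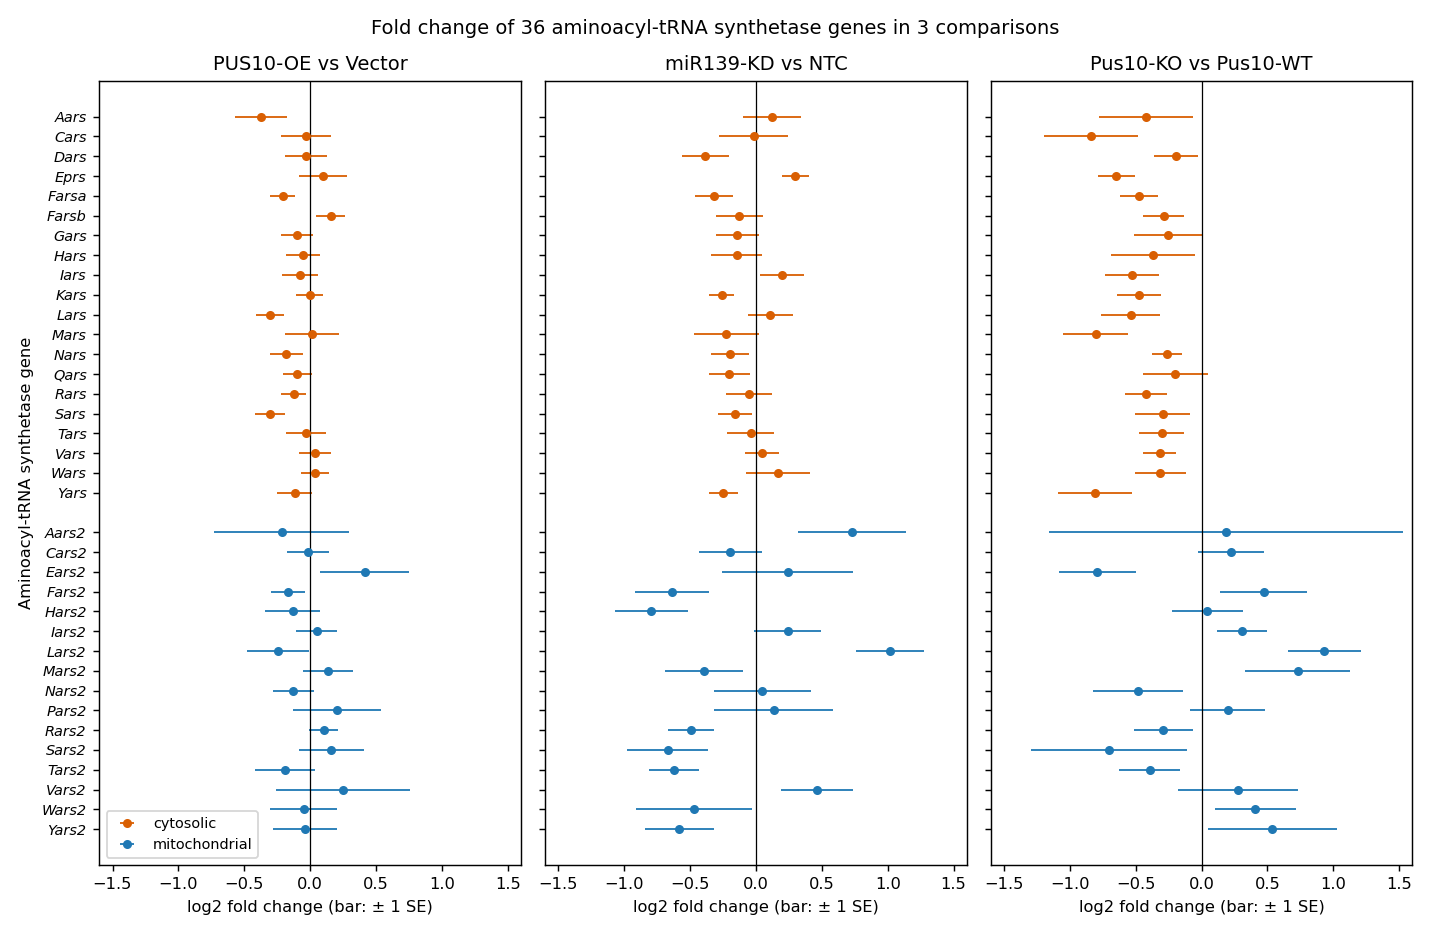
Log2 fold change (x axis, bars ± 1 SE) of each synthetase gene (y axis) in the 3 comparisons, cytosolic genes in orange and mitochondrial genes in blue. All 20 orange points lie left of 0 in Pus10-KO against Pus10-WT, while in the other 2 comparisons both classes lie on both sides of 0.

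With edgeR's quasi-likelihood test and Benjamini-Hochberg adjustment, 0 of the 36 members were called in Pus10-KO against Pus10-WT, where 0.0614% of all genes were. Of the cytosolic genes, 10 of 20 had an unadjusted p under 0.05 and all 10 were lower; the share over all genes was 6.86% in either direction and 3.33% on the lower side. Without Pus10-KO replicate 1 this count was 3, and without Pus10-WT replicate 1 it was 5. In 10 of the 20 the 3 Pus10-KO libraries all lay under the 3 Pus10-WT libraries, a separation seen in 13.7% of all genes in either direction and in 6.79% on the lower side. All 20 stayed below 0 when any other single library was left out, but without Pus10-WT replicate 3 it was 18 of 20, with Gars at 0.01 and Qars at 0.13.

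Eprs, which joins both glutamate and proline and is the largest enzyme of the multisynthetase complex, had the lowest p. It stood at 314, 327 and 373 CPM in the Pus10-WT libraries and at 256, 198 and 194 CPM in the Pus10-KO libraries. The groups were well apart, 1.56-fold, with a log2 fold change of -0.65 ± 0.142 (SE; adjusted p = 0.429 by edgeR). DESeq2, which called 1.46% of all genes here, called Eprs alone among the 36 members (adjusted p = 0.00518). Mars, the methionyl-tRNA synthetase that charges initiator tRNA as well, stood at 90.7, 104 and 81.0 CPM in Pus10-WT and at 68.4, 52.2 and 37.7 CPM in Pus10-KO. Its log2 fold change was -0.80 ± 0.246 (SE; adjusted p = 0.55 by edgeR), again with separated groups. Farsa, the catalytic subunit for phenylalanine, stood at 199, 192 and 167 CPM in Pus10-WT and at 145, 143 and 115 CPM in Pus10-KO (log2 fold change -0.47 ± 0.143 SE, adjusted p = 0.543 by edgeR). Its partner subunit Farsb was closer, at 154 ± 10.8 against 126 ± 20.3 CPM, and its groups overlapped.

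The other separated genes were Kars, Yars, Rars, Vars, Lars, Cars and Nars, which charge lysine, tyrosine, arginine, valine, leucine, cysteine and asparagine tRNAs. Kars stood at 354, 362 and 476 CPM in Pus10-WT and at 242, 333 and 283 CPM in Pus10-KO, with its groups close at the border. Yars stood at 105, 113 and 90.2 CPM against 46.2, 43.4 and 85.7 CPM, so 1 Pus10-KO library lay just under the controls and 2 far below. Cars, the lowest of the cytosolic genes by fold change at -0.84 (SE 0.357), stood at 33.2, 47.4 and 33.8 CPM against 12.3, 25.1 and 26.6 CPM. Rars stood at 134 ± 7.14 against 99.98 ± 16.01 CPM and Vars at 219 ± 15.6 against 176 ± 19.97 CPM (Pus10-WT first, SD, n = 3 each). Lars stood at 93.2 ± 23.0 against 64.3 ± 10.0 CPM and Nars at 237 ± 20.3 against 197 ± 11.04 CPM. Of the 10 genes whose groups overlapped, Iars, for isoleucine, had the lowest p, at 122 ± 13.7 against 84.5 ± 21.1 CPM. Aars, for alanine, was high in 1 Pus10-KO library (63.4 CPM) and low in the other 2 (26.8 and 27.4 CPM), with Pus10-WT between 49.7 and 55.6 CPM. Hars, Gars and Qars spread more within Pus10-WT than the groups differed: Hars ran from 72.8 to 174 CPM there.

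**Figure D2:**
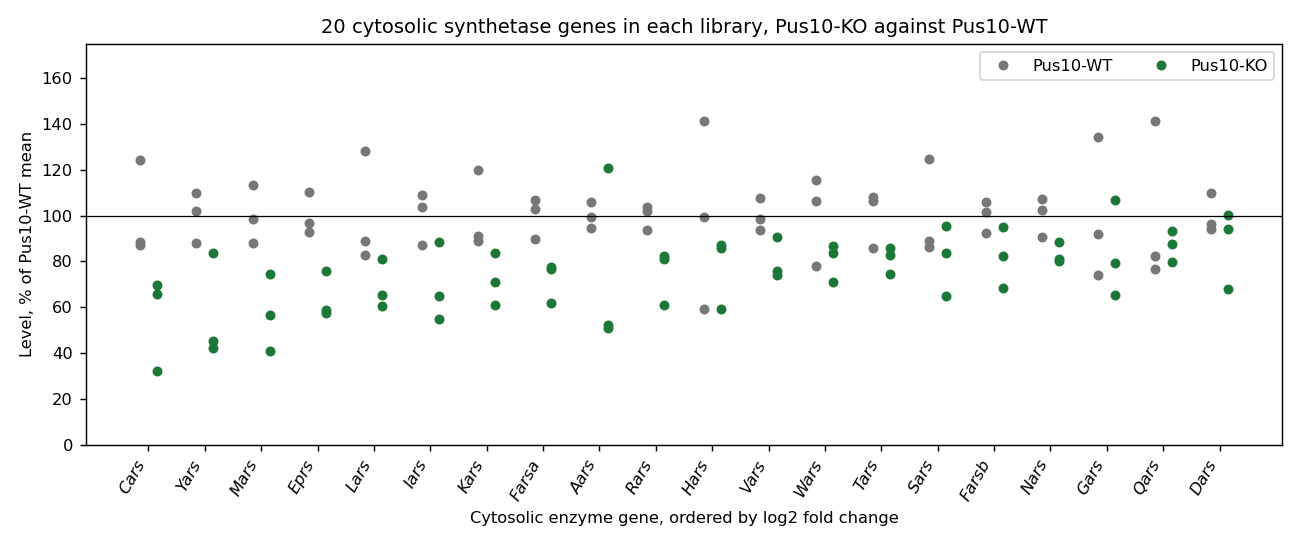
Level of each cytosolic synthetase gene in every Pus10-WT (grey) and Pus10-KO (green) library, as a percentage of the Pus10-WT mean of that gene (y axis), ordered by fold change (x axis). Green points lie mostly under the line at 100, and the 2 groups are separated in 10 of the 20 genes.

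The 8 members of the multisynthetase complex (Dars, Eprs, Iars, Kars, Lars, Mars, Qars and Rars) had a median log2 fold change of -0.50 in this comparison, and the 12 cytosolic genes outside it had -0.32. The 11 cytosolic genes listed as responsive to ATF4 had a median of -0.42 and the other 9 had -0.37, so the lower level was not limited to either subset. Of the non-enzyme scaffold genes of the complex, Aimp1 stood higher in Pus10-KO, at 109 ± 17.5 against 80.1 ± 11.1 CPM with separated groups (log2 fold change 0.45, adjusted p = 0.699 by edgeR), while Aimp2 and Eef1e1 lay at -0.22 and -0.35.

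Of the marker lists for other cells, only that of B and plasma cells separated these groups. The sums of the erythroid list and of the granulocyte and monocyte list overlapped. The summed level of 9 B and plasma cell markers was 13196 to 15581 CPM in Pus10-WT, with 8 of 9 detected and Pax5 at 0, and 67.3 to 86.3 CPM in Pus10-KO, with 5 of 9 detected and Cd79a, Ms4a1, Pax5 and Mzb1 at 0. Jchain, which joins secreted antibodies, stood at 3982, 1466 and 1002 CPM in Pus10-WT and at 0.16, 1.01 and 3.69 CPM in Pus10-KO. The 7 erythroid markers summed to 276 to 299 CPM in Pus10-WT, where all 7 were detected, and to 275 to 5525 CPM in Pus10-KO, and the 9 granulocyte and monocyte markers to 636 to 899 and to 666 to 3984 CPM, with 8 of 9 detected in each group (Ctsg at 0 in Pus10-WT, Ltf at 0 in Pus10-KO). The erythroid markers did not move alike. Hba-a1 stood at 62.8 ± 55.5 CPM in Pus10-WT and 1388 ± 1157 CPM in Pus10-KO. Klf1 stood at 109 ± 93.3 and 43.2 ± 31.6 CPM, and Epor at 17.5 ± 17.7 and 18.9 ± 14.2 CPM. The 10 stem cell markers summed to 2568 to 3065 CPM in Pus10-WT and 2571 to 2835 CPM in Pus10-KO. For 7 markers of cycling cells the sums were 203 to 859 and 363 to 629 CPM, overlapping. With 396 immunoglobulin and J chain genes removed before scaling, the cytosolic median was -0.39 and all 20 genes were still below 0, but the part of RNA from other cells in the result was not tested.

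Promoter sequence from RefSeq (GRCm38.p6; 250 bases before to 50 after the gene start) was matched for 27 of the 36 members. Not matched were Cars, Hars, Lars, Nars, Rars, Vars, Wars, Hars2 and Pars2. These windows were searched on both strands for TGATGNAAN, the core of the composite C/EBP and ATF element that ATF4 can bind, for CACGTG, the E-box that Myc family proteins can bind, and for the palindromic motif of NRF1, a regulator of many nuclear genes for mitochondrial proteins. No 2 of these motifs contain one another. TGATGNAAN was found in 5 of 13 cytosolic promoters (Aars, Gars, Iars, Tars and Yars) and 0 of 14 mitochondrial ones, against 3.95% of 32851 promoters. CACGTG was found in 4 of 13 (Aars, Farsb, Iars and Tars) and 1 of 14 (Ears2), against 7.15%, and the NRF1 motif in 3 of 13 (Farsb, Kars and Tars) and 2 of 14 (Iars2 and Mars2), against 4.6%. A match is a run of letters and not a measured site. The 3 promoters with TGATGNAAN before the gene start are shown for the 150 bases before it, 5′ to 3′ in the direction of the gene, with the motif in capitals; in each it reads on the opposite strand.
Aars (chr8:111033692-111033841, plus strand): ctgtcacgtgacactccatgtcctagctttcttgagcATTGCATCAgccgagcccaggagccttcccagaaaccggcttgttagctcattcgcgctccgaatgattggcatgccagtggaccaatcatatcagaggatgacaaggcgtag
Gars (chr6:55037851-55038000, plus strand): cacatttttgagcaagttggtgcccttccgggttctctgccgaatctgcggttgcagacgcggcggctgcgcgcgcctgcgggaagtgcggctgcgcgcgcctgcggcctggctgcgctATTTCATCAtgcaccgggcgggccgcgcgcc
Tars (chr15:11399659-11399808, minus strand): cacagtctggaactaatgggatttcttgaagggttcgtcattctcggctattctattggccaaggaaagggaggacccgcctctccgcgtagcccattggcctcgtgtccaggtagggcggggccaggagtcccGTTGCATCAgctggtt
The motif begins 113 bases before the start in Aars, 31 in Gars and 16 in Tars. These 3 genes, for alanine, glycine and threonine, had log2 fold changes of -0.42, -0.25 and -0.30 in Pus10-KO, none with separated groups.

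Among mitochondrial members in Pus10-KO, Lars2 for leucine had the lowest p. It stood at 54.4, 65.1 and 88.7 CPM in Pus10-WT and at 172, 91.8 and 134 CPM in Pus10-KO, just separated, with a log2 fold change of 0.93 ± 0.275 (SE; adjusted p = 0.537 by edgeR). Ears2, for glutamate, went the other way, at 30.7, 27.9 and 38.8 CPM against 22.3, 14.6 and 19.5 CPM (log2 fold change -0.79 ± 0.292 SE, adjusted p = 0.649 by edgeR). These were the 2 separated genes of the 16, where 13.7% of all genes were separated in either direction, a similar share. Mars2, for methionine, stood at 13.57, 13.997 and 18.96 CPM in Pus10-WT and at 16.21, 38.87 and 22.004 CPM in Pus10-KO, overlapping (log2 fold change 0.73 ± 0.397 SE, adjusted p = 0.841 by edgeR). Aars2 was at 0 in 1 Pus10-KO library and at 12.8 and 11.6 CPM in the other 2, so its fold change had an SE of 1.34.

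On miR-139 knockdown both class medians lay below 0, with members of each class on both sides of 0. Of the 36 members 1, Lars2, passed edgeR's test, on the higher side, a share close to the 2.72% of all genes called. The cytosolic median log2 fold change was -0.13, with 14 of 20 below 0, and the mitochondrial median was -0.29, with 9 of 16 below 0, against a median of 0.02 and 48.6% below 0 over all 13295 genes tested. Without Lars2 the mitochondrial median was -0.39. The cytosolic one was -0.05 when NTC replicate 4 was left out, -0.07 when replicate 3 of that group was, and -0.09 when miR139-KD replicate 5 was. The summed level of the other 15 mitochondrial genes was 551, 573 and 707 CPM (lowest, median, highest) in NTC and 451, 476 and 532 CPM in miR139-KD, so the groups did not overlap. The summed cytosolic level overlapped, at 3011 ± 290 CPM in NTC and 2864 ± 101 CPM in miR139-KD (SD, n = 6 each). The cytosolic to mitochondrial ratio was 5.10 ± 0.48 in NTC and 5.94 ± 0.37 in miR139-KD, opposite in direction to the Pus10-KO libraries.

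**Figure D3:**
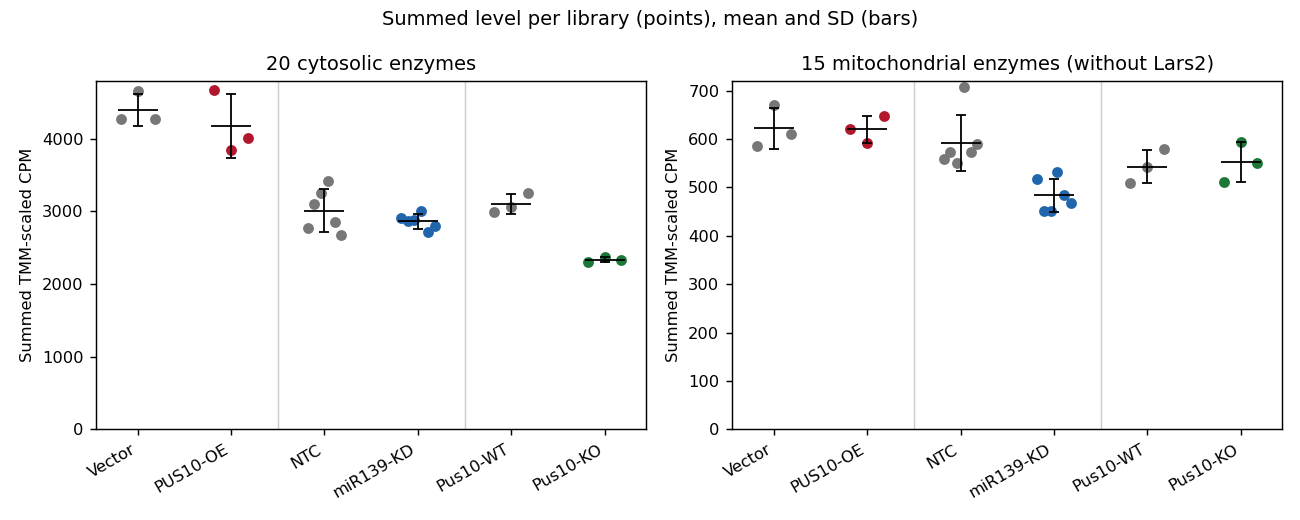
Summed TMM-scaled CPM (y axis) of the 20 cytosolic genes and of the 15 mitochondrial genes without Lars2 in each library (points) of the 6 groups (x axis), with mean and SD in black. The Pus10-KO points (2303 to 2373) lie under the Pus10-WT points (2991 to 3253) on the left, and the miR139-KD points (451 to 532) lie under the NTC points (551 to 707) on the right.

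Of the 36 members 1 was called in miR139-KD against NTC by edgeR, where 2.72% of all genes were, and 12 had an unadjusted p under 0.05, where 16% of all genes did. DESeq2 called Lars2 and Tars2, with adjusted p of 0.00265 and 0.0316, where it called 6.7% of all genes. No member had groups without overlap, a separation that 3.42% of all genes showed. Tars2, the mitochondrial threonine enzyme, stood at 78.7, 95.8 and 129 CPM in NTC (lowest, median, highest) and at 36.3, 65.5 and 84.6 CPM in miR139-KD. Only the top of the miR139-KD range overlapped NTC, with a log2 fold change of -0.62 ± 0.187 (SE; adjusted p = 0.0996 by edgeR). Hars2, for histidine, stood at 38.6 ± 14.3 CPM in NTC and 22.3 ± 5.07 CPM in miR139-KD, overlapping, with a log2 fold change of -0.79 ± 0.276 (SE; adjusted p = 0.156 by edgeR). Hars2 and its cytosolic partner Hars are neighbours read from opposite strands that share 4.56% and 7.97% of their exon bases, and unstranded libraries cannot assign reads of that stretch. Rars2, Fars2, Yars2 and Sars2, for arginine, phenylalanine, tyrosine and serine, also had an unadjusted p under 0.05, with log2 fold changes between -0.67 and -0.49.

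Among cytosolic genes in miR139-KD, Eprs had the lowest p and lay on the higher side. It stood at 260, 303 and 369 CPM in NTC (lowest, median, highest) and at 336, 367 and 434 CPM in miR139-KD, overlapping, with a log2 fold change of 0.30 ± 0.104 (SE; adjusted p = 0.157 by edgeR). Kars lay lower, at 302 ± 30.9 against 253 ± 26.8 CPM, and Yars at 94.2 ± 10.3 against 79.5 ± 3.92 CPM (NTC first), with edgeR adjusted p of 0.183 and 0.285. Farsa and Dars, for phenylalanine and aspartate, were the other 2 with an unadjusted p under 0.05, at -0.32 and -0.38. Megakaryocyte markers differed between these groups without overlap: the 5 markers, all detected, summed to 60.3 to 313 CPM in NTC and 1111 to 2801 CPM in miR139-KD. The 5 T cell markers summed to 41.4 to 62.2 CPM in NTC and 0.80 to 13.6 CPM in miR139-KD, nearly all of it Lck, which stood at 53.6 ± 7.25 and 6.14 ± 4.35 CPM, while Cd3e and Cd8a were at 0 in both groups and Cd3d in miR139-KD. The 9 B and plasma cell markers, all detected in both groups, summed to 622 to 11103 CPM in NTC and 135 to 9810 CPM in miR139-KD. The 7 erythroid markers, all detected, summed to 157 to 8691 CPM in NTC and 344 to 8664 CPM in miR139-KD. For the 9 granulocyte and monocyte markers, all detected, the sums were 1536 to 11489.5 and 1061 to 12693 CPM. The 10 stem cell markers summed to 470 to 794 and 690 to 845 CPM. For the 7 markers of cycling cells the sums were 1698.5 to 2247 and 1828 to 2385 CPM. The part of these cells in the synthetase values was not tested. Without the 3 libraries of over 1000 CPM of Igkc, the cytosolic median was -0.16, the mitochondrial one -0.38, and Lars2 was still called.

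Lars2, the leucine enzyme of the mitochondrion (chromosome 9, 123366927 to 123462666, plus strand, GRCm38), rose 2.02-fold on miR-139 knockdown by edgeR. It stood at 550, 807 and 1388 CPM in NTC (lowest, median, highest) and at 1080, 1729 and 3037 CPM in miR139-KD. The lowest miR139-KD library lay within the NTC range and the other 5 above it. The log2 fold change was 1.02 ± 0.257 (SE; adjusted p = 0.0494 by edgeR). The call was lost with RLE scaling (adjusted p = 0.0509), without a filter on low counts (0.0967), with a filter of 10 CPM (0.0851) and in 9 of 12 fits that left out 1 library: NTC replicates 2, 3, 4 or 6, or miR139-KD replicates 1 to 5 (adjusted p 0.0593 to 0.107). The log2 fold change stayed between 0.81 and 1.19 over these 12 fits.

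The level of Lars2 also differed widely between experiments. Its group means were 60.5 CPM in Vector, 51.1 in PUS10-OE, 69.4 in Pus10-WT and 132 in Pus10-KO, but 896 in NTC and 1814 in miR139-KD. It made up 8.91% ± 1.49 of the summed mitochondrial level in Vector and 58.5% ± 10.4 in NTC, so any sum that includes it follows this 1 gene there. The experiments were not compared by a test of level, since each was prepared with its own control. Gm15564, an antisense RNA gene on chromosome 16 (35966752 to 35983230, minus strand) chosen after its values were seen, stood at 1.39 to 1.87 CPM in Vector and 1.31 to 2.25 in PUS10-OE. It stood at 22.6 to 73.3 CPM in NTC, 49.0 to 106 in miR139-KD, 1.18 to 2.69 in Pus10-WT and 3.47 to 4.77 in Pus10-KO. The ratio of Lars2 to Gm15564 counts was between 18.4 and 46 in all 24 libraries, across a range of Lars2 from 33.8 to 3037 CPM. On miR-139 knockdown Gm15564 had a log2 fold change of 0.88 ± 0.27 (SE; adjusted p = 0.107 by edgeR), and in Pus10-KO one of 1.14 ± 0.897 (SE; adjusted p = 0.932 by edgeR).

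**Figure D4:**
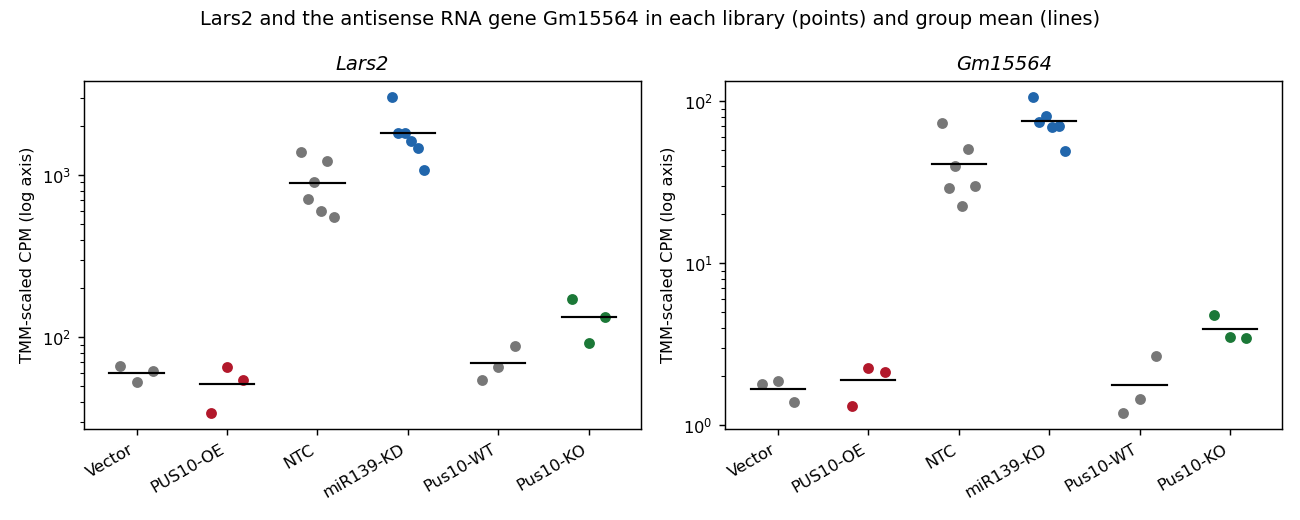
TMM-scaled CPM (y axis, log scale) of Lars2 and of Gm15564 in each library (points) of the 6 groups (x axis), with group means as lines. Both genes are high in NTC and miR139-KD, where Lars2 lies between 550 and 3037 CPM, and low in the other 4 groups.

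A sequence search showed that the 2 genes share a stretch. The principal Lars2 transcript (3894 bases, stop codon ending at base 2908) and a Gm15564 transcript match at 71 of 72 bases, from base 3278 to 3349 of the former and 179 to 250 of the latter, so the stretch lies in the 3′ untranslated region of Lars2 (chromosome 9, 123462048 to 123462119). The 1 difference is A53T, counted from the first base of the stretch, with the Lars2 base first. The 30 bases of Gm15564 around it (bases 216 to 245, from the GENCODE M21 transcripts) are shown with that base in capitals.
Gm15564: ggaacgtgagctgggTttagaccgtcgtga
AA474408 has a transcript that matches that of Lars2 at 92 of 97 aligned bases, from base 3233 to 3329 of Lars2. This match overlaps the stretch shared with Gm15564. AA474408 stood at 4.69 ± 4.57 CPM in NTC and 4.48 ± 3.89 CPM in miR139-KD and did not follow Lars2. Gm26917, another noncoding RNA gene, was also high in this experiment, at 1179 ± 319 CPM in NTC. It stood at 76.8 ± 7.31 CPM in Vector and 159 ± 20.9 CPM in Pus10-WT. Unlike Lars2, its mean was lower in miR139-KD than in NTC, at 961 ± 246 CPM. Counts per gene do not show how many Lars2 reads fall in the shared stretch, whether the stretch also occurs in ribosomal RNA genes was not examined here, and the part of such reads in the Lars2 values was not tested.

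In PUS10-OE against Vector the synthetase genes were close to level. The cytosolic median log2 fold change was -0.07, with 15 of 20 below 0, and the mitochondrial one -0.03, with 9 of 16 below 0, against 0.01 and 49.3% over all 14834 genes tested. Leaving out 1 library at a time gave cytosolic medians from -0.16 to -0.03 and mitochondrial medians on both sides of 0, from -0.14 to 0.07, with the positive values without Vector replicate 2 or without PUS10-OE replicate 1 or 2. By edgeR 0 members were called, as were 0% of all genes, and 2 had an unadjusted p under 0.05, where 8.19% of all genes did. Pus10 itself, 3.39-fold higher with separated groups, was not called either (adjusted p = 0.278 by edgeR). The lack of calls here therefore does not show a lack of change. DESeq2 called 0 members and 1.44% of all genes. Groups without overlap were found for 4 members, all lower, where 15.1% of all genes showed them.

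Lars, the cytosolic leucine enzyme that also senses leucine for mTORC1, stood at 208, 208 and 200 CPM in Vector and at 185.3, 148.5 and 164.9 CPM in PUS10-OE. The Vector libraries were nearly equal and all above PUS10-OE, with a log2 fold change of -0.31 ± 0.104 (SE; adjusted p = 0.499 by edgeR). Sars, for serine, stood at 158, 150 and 146 CPM against 126, 107 and 134 CPM (log2 fold change -0.31 ± 0.112 SE, adjusted p = 0.519 by edgeR), and Farsa at 254, 260 and 239 CPM against 215, 198 and 237 CPM, its groups almost touching. The fourth separated gene was Fars2, the mitochondrial phenylalanine enzyme, at 47.9 ± 1.00 against 42.6 ± 3.07 CPM (Vector first). Lars2 and Ears2 overlapped, with log2 fold changes of -0.24 and 0.41. The summed cytosolic level was 4401 ± 220 CPM in Vector and 4175 ± 441 CPM in PUS10-OE, and the mitochondrial sum without Lars2 was 622 ± 43.0 and 620 ± 27.6 CPM (SD, n = 3 each). The 5 megakaryocyte markers summed to 146 to 174 CPM in Vector, with 4 of 5 detected and Gp1bb at 0, and to 246 to 432 CPM in PUS10-OE, with all 5 detected. The 9 granulocyte and monocyte markers summed to 90.5 to 121 CPM in Vector (7 of 9 detected, Elane and S100a9 at 0) and to 71.9 to 85.4 CPM in PUS10-OE (7 of 9 detected, S100a8 and S100a9 at 0). Neither pair of ranges overlapped. The stem cell, erythroid, B and plasma cell, T cell and cycling cell lists did overlap between these groups. The cycling cell markers summed to 1947 to 2348 CPM in Vector and 2185 to 2862 CPM in PUS10-OE. The part of RNA from other cells in the synthetase values was not tested.

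A fit over all 6 groups tested whether a fold change differed between experiments. By edgeR 0 of 36 members passed for miR139-KD minus PUS10-OE, miR139-KD minus Pus10-KO or PUS10-OE minus Pus10-KO. Of all 17664 genes tested 9, 52 and 4 passed, in that order, so few genes of any kind did. An unadjusted p under 0.05 was found for 2, 8 and 4 members, where 8.47%, 10.1% and 5.75% of all genes had one. Eprs came closest, higher in miR139-KD and lower in Pus10-KO, with a log2 difference of 0.91 ± 0.203 (SE; adjusted p = 0.0531 by edgeR). Over 28 settings its adjusted p ran from 0.0173 to 0.169, and it passed with RLE scaling, with a filter of 10 CPM and in 6 fits that left out 1 library: PUS10-OE replicates 1 or 2, NTC replicates 1 or 3, miR139-KD replicate 6 or Pus10-KO replicate 1. The mitochondrial genes with an unadjusted p under 0.05 in that pair were Fars2, Hars2, Mars2 and Yars2, all with a lower fold change in miR139-KD, with log2 differences from -1.16 to -0.87. The cytosolic ones besides Eprs were Iars, Lars and Yars, with 0.69, 0.61 and 0.53.

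Levels between genes were compared per kilobase of annotated exon (CPM per kb), which understates genes whose annotation holds retained introns, such as Eprs with 18102 bases. Cytosolic genes stood well above mitochondrial ones in every control group: the median was 36.9 against 5.97 CPM per kb in Vector, 28.5 against 6.20 in NTC and 28.2 against 6.14 in Pus10-WT. Nars led the cytosolic genes in Vector (125 ± 3.37 CPM per kb), followed by Farsb (107 ± 12.3) and Rars (98.4 ± 7.75), which overlapped with their neighbours in the order. Kars led in NTC (67.8 ± 6.92), beside Hars (67.4 ± 17.2) and Farsb (56.6 ± 12.9), and in Pus10-WT (89.0 ± 15.4), where it did not overlap with Farsb (58.7 ± 4.13), which was followed by Nars (54.4 ± 4.67). Aars and Cars were the lowest of the cytosolic genes in all 3 groups, between 5.66 and 10.1 CPM per kb, next to Qars in Vector (14.1) and Tars in NTC (15.2) and Pus10-WT (14.3). Exons of Aars share 15.1% of their bases with Exosc6, so part of its reads cannot be assigned.

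Rars2, the mitochondrial arginine enzyme, stood above the other mitochondrial genes per kb in Vector (56.2 ± 2.59) and Pus10-WT (28.4 ± 4.00) without overlap with the next, and second to Lars2 in NTC (25.7 ± 4.74 against 80.8 ± 30.9 CPM per kb). Next came Hars2 (12.9) and Tars2 (12.7) in Vector, Yars2 (20.9) in NTC, and Tars2 (12.4) and Hars2 (12.3) in Pus10-WT. The lowest were Vars2 (0.49), Aars2 (0.53) and Ears2 (1.45) in Vector, Wars2 (2.53), Mars2 (2.97) and Nars2 (3.08) in NTC, and Mars2 (1.37), Aars2 (1.501) and Vars2 (1.72) in Pus10-WT. Adjacent genes in the order overlapped in 12 of 19 cytosolic and 10 of 15 mitochondrial steps in Vector, in 19 of 19 and 14 of 15 in NTC, and in 16 of 19 and 13 of 15 in Pus10-WT. For 15 amino acids a single cytosolic gene could be paired with a mitochondrial one (Eprs with both Ears2 and Pars2, and Fars2 left out because its cytosolic partner has 2 subunits). The cytosolic gene was higher per kb in every library for 15 of 15 pairs in Vector and PUS10-OE, 11 in NTC, 10 in miR139-KD, 13 in Pus10-WT and 12 in Pus10-KO. The exceptions were among Aars2, Cars2, Lars2, Tars2 and Yars2. For leucine the median ratio of Lars to Lars2 per kb was 6.65 in Vector, 0.21 in NTC and 0.12 in miR139-KD. For arginine the ratio of Rars to Rars2 had medians between 1.36 and 2.17 over the 6 groups.

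**Figure D5:**
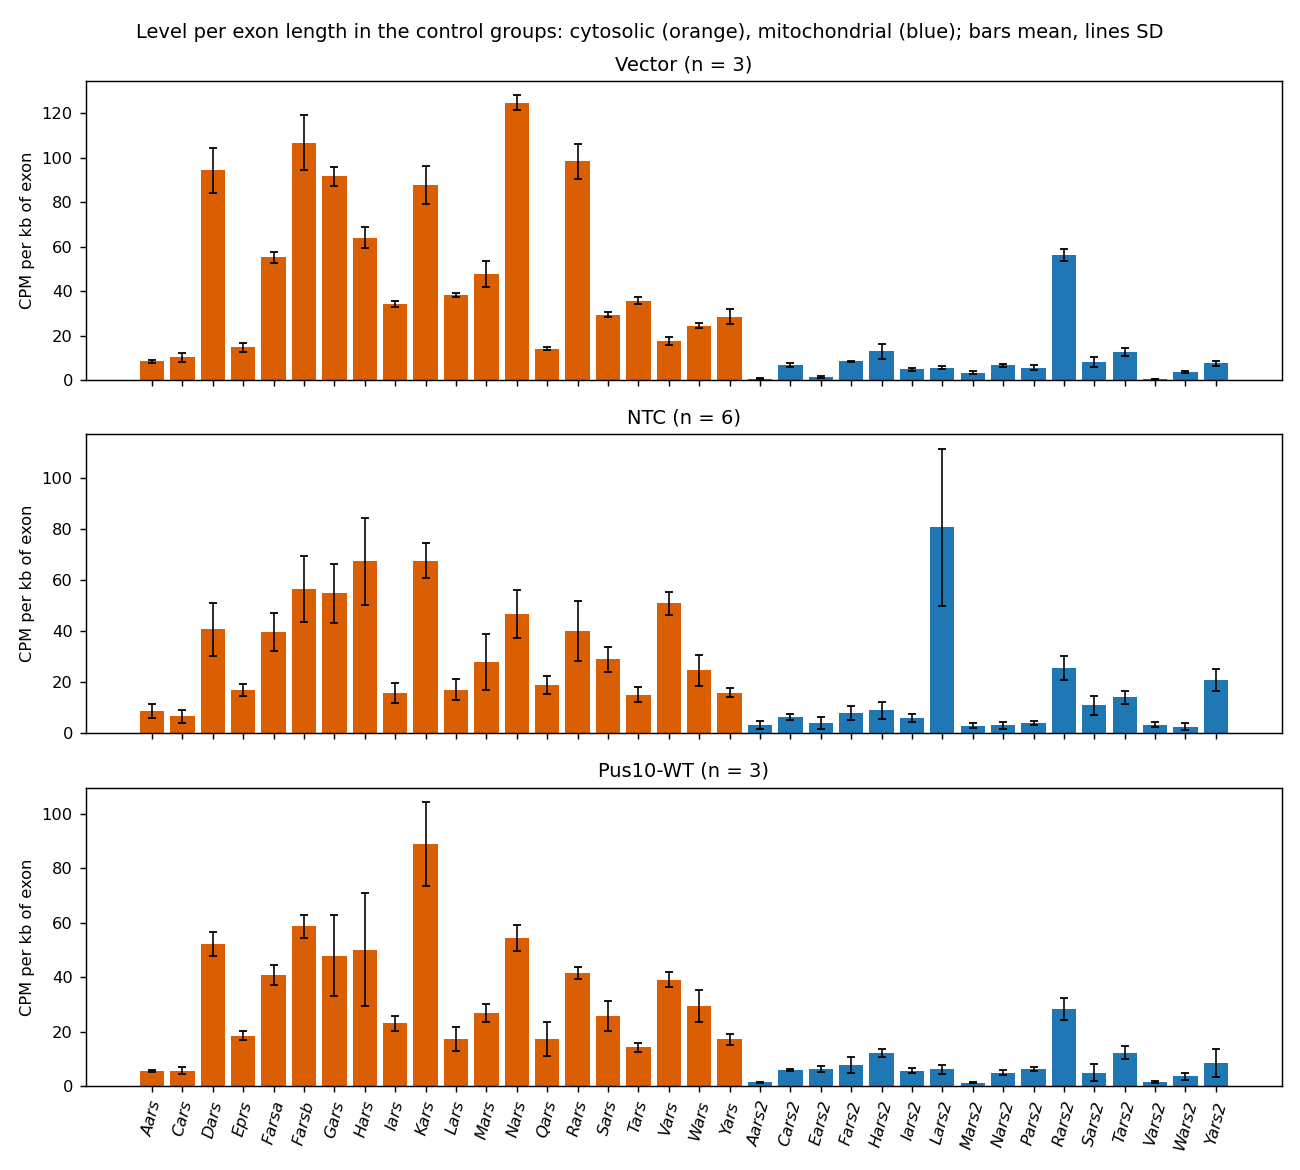
Level per kilobase of annotated exon (y axis, CPM per kb; bars mean, lines SD) of each synthetase gene (x axis) in the 3 control groups. Most cytosolic genes (orange) stand above most mitochondrial genes (blue). Exceptions include Rars2 in all 3 groups, and Lars2 (80.8) and Yars2 (20.9) in NTC. By mean, Tars2 and Hars2 stand above Aars and Cars in all 3 groups, but Hars2 (9.03 ± 3.34) and Aars (8.85 ± 2.80) are nearly equal in NTC.

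Other genes of tRNA charging and translation were taken from lists. The 77 tested mitochondrial ribosomal protein genes had a median log2 fold change of 0.18 in PUS10-OE with 68 above 0, of 0.01 in miR139-KD with 39 above 0, and of -0.13 in Pus10-KO with 16 above 0, and 0 were called in any of the 3 by edgeR. Of 11 mitochondrial translation factors 0 were called in any comparison. Guf1, a mitochondrial elongation factor of the LepA family, was the lowest by p in Pus10-KO, at 63.60, 75.28 and 50.01 CPM in Pus10-WT and 94.0, 132 and 97.3 CPM in Pus10-KO (log2 fold change 0.77 ± 0.218 SE, adjusted p = 0.509 by edgeR). Of 5 cytosolic elongation factor genes, Eef1b2, an exchange factor for the elongation factor that delivers charged tRNA, rose on miR-139 knockdown. It stood at 798, 906 and 985 CPM in NTC (lowest, median, highest) and at 990, 1136 and 1194 CPM in miR139-KD, just separated, with a log2 fold change of 0.31 ± 0.0683 (SE; adjusted p = 0.0294 by edgeR).

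Of the listed genes of the ATF4 response and amino acid supply, edgeR called 3 of 25 on miR-139 knockdown, where 2.72% of all genes were called, 0 of 25 in Pus10-KO, where 0.0614% were, and 0 of 29 in PUS10-OE, where 0% were. In Pus10-KO 19 of 25 tested lay below 0, where 50.3% of all genes did, with a median of -0.20. An unadjusted p under 0.05 by edgeR was found for 5 of the 25, all lower. On the lower side 3.33% of all genes had one. Groups were separated in 6 of the 25, all lower, where 6.79% of all genes were separated on that side. The lowest by p were Shmt2, which makes glycine from serine in the mitochondrion (205 ± 20.3 CPM in Pus10-WT against 107 ± 29.3 in Pus10-KO), Asns, the asparagine synthetase (156 ± 50.3 against 78.2 ± 15.6), and Slc3a2, a subunit of amino acid transporters (298 ± 21.0 against 194 ± 50.1). Their log2 fold changes were -0.93, -0.99 and -0.62, with edgeR adjusted p of 0.455, 0.506 and 0.559, and all 3 had separated groups. Ddit3 and Trib3, also on the list, lay at 0.05 and 0.12 there, and the part of ATF4 in these values was not tested. In miR139-KD Nupr1, a stress-induced transcriptional regulator, rose from 32.0 ± 8.29 to 86.8 ± 34.6 CPM (log2 fold change 1.44, adjusted p = 0.00557 by edgeR). Phgdh, the first enzyme of serine synthesis, fell from 461 ± 78.3 to 261 ± 57.9 CPM (log2 fold change -0.82, adjusted p = 0.00909 by edgeR), and Vldlr, a lipoprotein receptor, from 45.9 ± 20.9 to 13.6 ± 3.82 CPM (log2 fold change -1.75, adjusted p = 0.00513 by edgeR). In all 3 the groups did not overlap, while the 11 ATF4-responsive synthetases had a median of -0.04 in that comparison. In PUS10-OE 22 of 29 lay below 0, where 49.3% of all genes did, with a median of -0.23. Ddit3, Trib3 and Ppp1r15a had the lowest p with log2 fold changes of -0.81, -1.49 and -1.09 (edgeR adjusted p of 0.364, 0.364 and 0.393).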

How the data were processed

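Smart-seq2 libraries were sequenced from 24 samples of sorted cells in 6 groups, taken from the labels. The deposited files hold whole-number read counts per gene, not normalized. The authors used the mm10 genome, HISAT2 2.1.0 for alignment, HTSeq 0.11.2 for counting and DESeq2 (no version), per the submitters' processing notes. The annotation and the strand setting are not given in the sources used here. Such libraries do not mark the strand, and their reads carry no molecular identifiers, so amplified copies cannot be told from separate molecules. The 5 summary entries stayed out of tests; 3.70% to 12.0% of reads had no gene and 6.53% to 20.1% were ambiguous. Symbols were matched for 55094 of 55487 IDs, and coordinates and exon lengths came from GENCODE M21 (GRCm38).

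For each comparison edgeR 4.0.16 (R 4.3.3) was run on the 2 groups concerned (filterByExpr, TMM, robust quasi-likelihood F test, two-sided), with Benjamini-Hochberg adjustment over all genes tested and calls at an adjusted p under 0.05. All 36 members passed the filter in each. Alternatives were RLE scaling, DESeq2 1.42.0, limma-voom 3.58.1 with quality weights, no filter, a filter of 10 CPM, a replicate block, a joint fit of all 6 groups, and leaving out each library. Leaving out libraries with over 1000 CPM of Igkc, removing immunoglobulin genes and leaving Lars2 out of the mitochondrial values were chosen after seeing the data. The code was tested on simulated data. Within groups, each of 42 library pairs differed beyond sampling noise (chi-square per degree of freedom at least 31.9). Named members were Pus10, every called member, the 3 lowest by p per comparison and class, the 3 highest and lowest per kb in each control group, and up to 3 per list of other genes; others were added to describe the separated genes after their values were seen. The members and lists were chosen with earlier results of these data known. Figures used matplotlib 3.10.9.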

Additional observations from a re-analysis of the deposited data

Results flagged for a closer look

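In 3 of 72 sets of 6 libraries (36 members in NTC and in miR139-KD), 1 library lay far from the other 5 for its gene, by Dixon's ratio at a 95% critical value of 0.625. Chance alone flags about 1 in 20 such sets, and 3 of 72 is 4.17%. Gars, the glycine enzyme of both compartments, was at 239.7 CPM in NTC replicate 3, with the nearest other library at 174.6 CPM. Farsa, for phenylalanine, was at 198.4 CPM in miR139-KD replicate 5, with the nearest at 150.1 CPM. Cars2, the mitochondrial cysteine enzyme, was at 73.0 CPM in miR139-KD replicate 3, with the nearest at 38.7 CPM. The 3 values came from 3 different libraries.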

How the results depend on the processing

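The class medians kept their direction under the other tools, scalings, filters and the fit over all 6 groups in all 3 comparisons, and the smallest of them, the mitochondrial median of -0.03 in PUS10-OE, ran from -0.06 to -0.01. Members called on miR-139 knockdown numbered 1, but 0 with RLE scaling, 0 without a filter and 0 with a filter of 10 CPM, 2 with DESeq2, and 0 to 1 over the fits that left out 1 library. In Pus10-KO against Pus10-WT DESeq2 called 1 member where edgeR called 0. Members whose fold change differed between miR139-KD and Pus10-KO numbered 0, but 1 with RLE scaling, 1 with a filter of 10 CPM, and 0 to 1 over the fits that left out 1 library; the cause was not tested. Same-numbered libraries did not deviate together (correlations of deviations from -0.0528 to 0.0104, 0 of 12 pairs over 0.1), so the numbers were not taken as pairs. With the replicate block the cytosolic medians were -0.08, -0.12 and -0.38 and the mitochondrial ones -0.04, -0.30 and 0.19 for PUS10-OE, miR139-KD and Pus10-KO, and the calls were 0, 1 and 0. Without 1 library the Pus10-KO medians ran from -0.45 to -0.37 (cytosolic) and from 0.13 to 0.29 (mitochondrial), and those of miR139-KD from -0.15 to -0.05 and from -0.35 to -0.20. Low counts limit Aars2, Vars2 and Ears2, whose levels lay under 10 CPM in some groups.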
